A study of Homo sapiens with 12 samples.

Results

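The 43 genes described here belong to DNA repair by homologous recombination, the Fanconi anemia pathway, mismatch repair and end joining, with the PARP enzymes PARP1 and PARP2. They were chosen by name from the 57353 genes of the count table. The rule uses no measured value, but earlier results of these data were known when the genes were chosen. The cells were MOLM-13, a human AML line with an internal tandem duplication in the receptor kinase FLT3. Cells received either vehicle (DMSO) or 3 nM quizartinib (AC220), a FLT3 inhibitor, and were harvested after 15 hr. They were kept either in RPMI or in hBMSC-CM, which is RPMI mixed with medium in which HS-5 cells, a human stromal line from bone marrow, had grown. The 12 libraries fall into 4 groups of 3 replicates: vehicle in RPMI, quizartinib in RPMI, vehicle in hBMSC-CM and quizartinib in hBMSC-CM. All groups are the same cell line, labelled as wild type with no engineered allele, so they model 1 leukemia, and HS-5 is 1 stromal line. The study describes its replicates as biological without saying whether those of a group were separate cultures, and the p-values measure the spread between these libraries.

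Homologous recombination copies a broken chromosome from its sister. Broken ends are first trimmed by nucleases, BRCA1, PALB2 and BRCA2 then load the recombinase onto single-stranded DNA, paralogs of that recombinase and translocases of the RAD54 family help it to find and pair with the sister, and helicases and nucleases take the joined molecules apart. The Fanconi core complex attaches ubiquitin to the FANCD2-FANCI pair at crosslinked DNA, which starts an incision that recombination completes. Mismatch repair corrects copying errors behind the replication fork. End joining, by contrast, seals breaks without a sister and works throughout the cell cycle. Many recombination and replication genes are transcribed mainly in late G1 and S phase under E2F factors, and bulk RNA cannot tell fewer cells in that phase from less RNA per cell.

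Libraries held 19966546 to 31546104 counts in total. For a reading of 0, 3 counts were taken as an approximate upper bound on the expected count. They equal 0.0951 to 0.15 CPM (counts scaled to the library total). That limit covers counting error only. Myeloid genes were present in all groups (mean CPM of FLT3 113 to 452, PTPRC 260.3 to 532, LYZ 275 to 1009), although MPO stood at only 3.06 to 4.75. The summed level of 10 stromal fibroblast genes was 3.18 to 4.19 CPM over the vehicle libraries, 10.8 to 13.4 with quizartinib in RPMI and 6.21 to 6.88 with quizartinib in hBMSC-CM. Of this list 2 genes passed the filter, and both rose with quizartinib in each medium. The collagen gene COL1A1 went from a mean of 0.177 to 4.59 CPM with the drug in RPMI, and from 0.224 to 0.99 CPM in hBMSC-CM. TAGLN, an actin-binding protein, went from 2.54 to 6.16 CPM in RPMI and from 2.39 to 4.39 CPM in hBMSC-CM. COL3A1, LUM, DCN and THY1 had no count in any library. The share of counts on mitochondrial genes was 0.683% to 0.79% and 1.02% to 1.1% for vehicle and quizartinib in RPMI, and 0.458% to 0.613% and 0.683% to 0.947% in hBMSC-CM. The part of these differences in the results below was not tested.

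Promoters are shown first. An E2F site was found in a larger share of the repair genes than of all tested genes. Its part in the changes of these genes was not tested. The windows run from 250 bases before to 50 bases after a RefSeq start (GRCh38.p14), 5′ to 3′ on the strand of the gene. The first 3 belong to the genes with the largest fall under quizartinib in RPMI and the last to RAD51B, which had the largest increase without passing the test. Capitals mark an E2F site, which was searched on both strands in 4 forms. The forms were TTCCCGC, along with its variant TTCGCGC, and the similar pair formed by TTGCCGC, together with TTGGCGC.
EXO1, chr1:241847954-241848253, plus strand: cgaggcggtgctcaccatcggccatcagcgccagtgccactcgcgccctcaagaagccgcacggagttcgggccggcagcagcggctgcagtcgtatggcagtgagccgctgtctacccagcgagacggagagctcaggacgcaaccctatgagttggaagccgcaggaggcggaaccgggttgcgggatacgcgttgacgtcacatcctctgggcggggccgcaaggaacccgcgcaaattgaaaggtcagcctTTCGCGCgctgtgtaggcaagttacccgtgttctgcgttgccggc
XRCC3, chr14:103715402-103715701, minus strand: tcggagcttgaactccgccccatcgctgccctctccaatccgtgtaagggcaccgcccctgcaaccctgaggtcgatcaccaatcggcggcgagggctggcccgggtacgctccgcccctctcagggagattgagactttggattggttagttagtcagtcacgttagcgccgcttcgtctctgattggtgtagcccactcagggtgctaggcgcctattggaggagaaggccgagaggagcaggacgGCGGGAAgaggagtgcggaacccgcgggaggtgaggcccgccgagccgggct
RAD54L, chr1:46247438-46247737, plus strand: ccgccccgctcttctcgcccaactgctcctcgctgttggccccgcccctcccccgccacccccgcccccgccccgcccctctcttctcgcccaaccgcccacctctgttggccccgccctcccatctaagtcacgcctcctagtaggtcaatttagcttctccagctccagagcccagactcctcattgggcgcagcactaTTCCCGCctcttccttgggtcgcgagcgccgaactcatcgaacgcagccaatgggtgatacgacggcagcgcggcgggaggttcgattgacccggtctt
RAD51B, chr14:67823291-67823590, plus strand: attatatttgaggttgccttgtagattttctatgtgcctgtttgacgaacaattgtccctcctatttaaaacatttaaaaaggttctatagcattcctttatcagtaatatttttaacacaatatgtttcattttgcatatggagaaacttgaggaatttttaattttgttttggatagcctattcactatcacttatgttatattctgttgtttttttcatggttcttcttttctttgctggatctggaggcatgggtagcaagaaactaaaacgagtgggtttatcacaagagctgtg
Counted from the first transcribed base of RefSeq as base 0, the EXO1 site TTCGCGC covers bases 5 to 11. The XRCC3 site covers bases −2 to 4 and reads GCGGGAA, the reverse complement of TTCCCGC. The RAD54L site TTCCCGC covers bases −49 to −43. In the RAD51B window these letters were not found. The start used for it lies 3762 bases downstream of the GENCODE start of the gene (chr14:67819779-68730218, plus strand), and that used for the RAD54L window lies 1227 bases downstream of its own (chr1:46246461-46278480, plus strand). Neither window therefore shows the sequence at the most upstream start, whereas the EXO1 and XRCC3 windows hold theirs. The XRCC3 window also holds 5 CCAAT boxes (CCAAT on either strand) and the RAD54L window 2.

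An E2F site was present in the windows of 27 of the 39 repair genes in the promoter table (69.2%). RAD54B, RMI2, FANCI and XRCC5 had no entry. Among genes lowered at least 2-fold by quizartinib in RPMI, 16 of 20 held a site (80.0%), against 8 of 12 lowered by less (66.7%) and 3 of the other 7 (42.9%). The same letters occurred in 25.1% of the 8998 tested genes with an entry, in 30.2% of those that quizartinib lowered in RPMI, in 21.4% of the rest and in 13% of all 35116 windows of this length. CCAAT boxes were found in 46.2% of the repair genes and 43.9% of the tested genes. The CHR element of mitotic genes (TTTGAA on either strand) was found in 2 repair genes, FANCC and BRIP1 (5.13%), and in 13.8% of tested genes. PALB2, BRCA2, RAD51B, RAD51C, RBBP8, FANCB, FANCM, SLX4, MUS81, XRCC4, LIG4 and NHEJ1 held no E2F site in their windows. Of these, PALB2, RAD51C, RBBP8 and FANCB fell by more than 2-fold in RPMI all the same. The share among all tested genes lowered at least 2-fold was not counted, so the 80.0% has no like value beside it. These shares describe letters in a window and were not tested. Of the repair genes, 14 have several windows, and a site in any of them was counted.

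**Figure D1:**
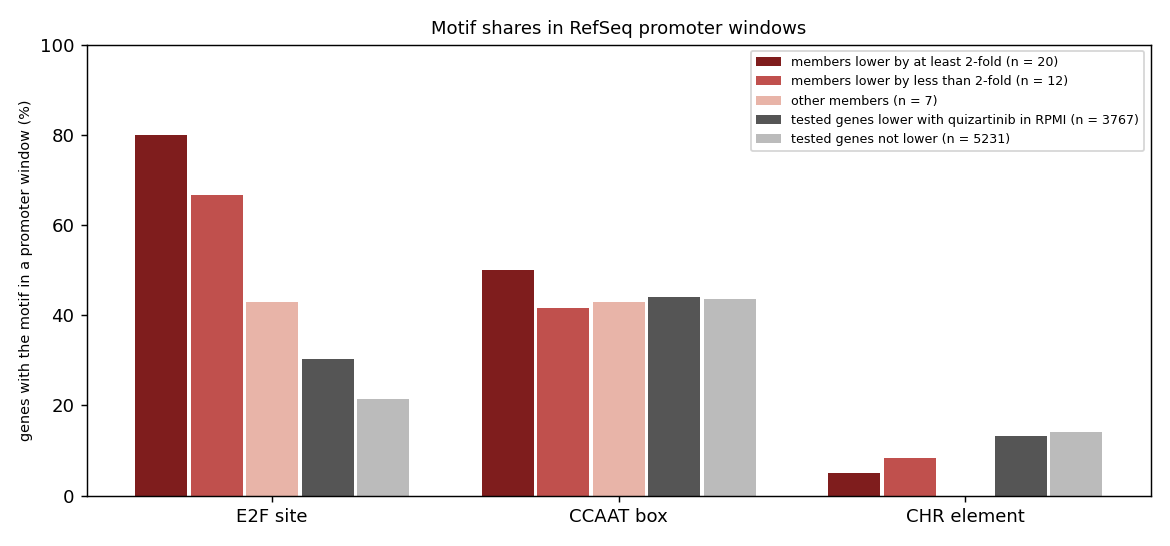
Share of genes (%, vertical axis from 0 to 100) with an E2F site, a CCAAT box or a CHR element in a RefSeq promoter window, for repair genes lowered by at least 2-fold or by less with quizartinib in RPMI, the other repair genes, and all tested genes that were or were not lowered. The E2F bars stand at 80.0%, 66.7% and 42.9% for the repair genes, which number only 20, 12 and 7. They stand at 30.2% and 21.4% for all tested genes lowered by any amount and not lowered. The CCAAT bars lie between 41.7% and 50%.

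Quizartinib lowered most of the repair genes in RPMI. Of the 43 genes 42 passed the filter on low counts, and 36 of these fell, none rose and 6 did not pass the test. Over all 12998 tested genes 39.4% were lower and 39.8% higher, and genes lowered at least 2-fold made up 11.9% of all tested genes, against 23 of the 42 repair genes. The median log2 fold change of the repair genes was −1.01, against 0.02 over all tested genes. Summed over the repair genes, the level was 4910 to 4990 CPM with vehicle and 2550 to 2630 CPM with quizartinib, with no overlap. Much of this sum comes from XRCC5, XRCC6 and PARP1, with means of 1034, 743 and 492 CPM with vehicle in RPMI. Each of these fell by less than 2-fold there. The fall was smaller in hBMSC-CM, where 34 genes fell, 1 rose and the median was −0.56, against 33.6% lower, 33.5% higher and a median of 0.01 over all tested genes. With library size only in place of TMM, 3316 of all tested genes were lower and 5572 higher in hBMSC-CM, against 4364 and 4358, and the median of all genes moved to 0.11. Upper-quartile factors gave 3539 and 5316 there and moved the median of all genes in RPMI to 0.13. In hBMSC-CM the sum of the repair genes went from 4730 to 4900 CPM with vehicle to 3290 to 3450 CPM with quizartinib. Levels are CPM scaled by TMM, a factor between libraries that lay between 0.956 and 1.04. Genes were called by the two-sided quasi-likelihood test of edgeR, adjusted over all tested genes after Benjamini-Hochberg, at an adjusted p under 0.05.

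**Figure D2:**
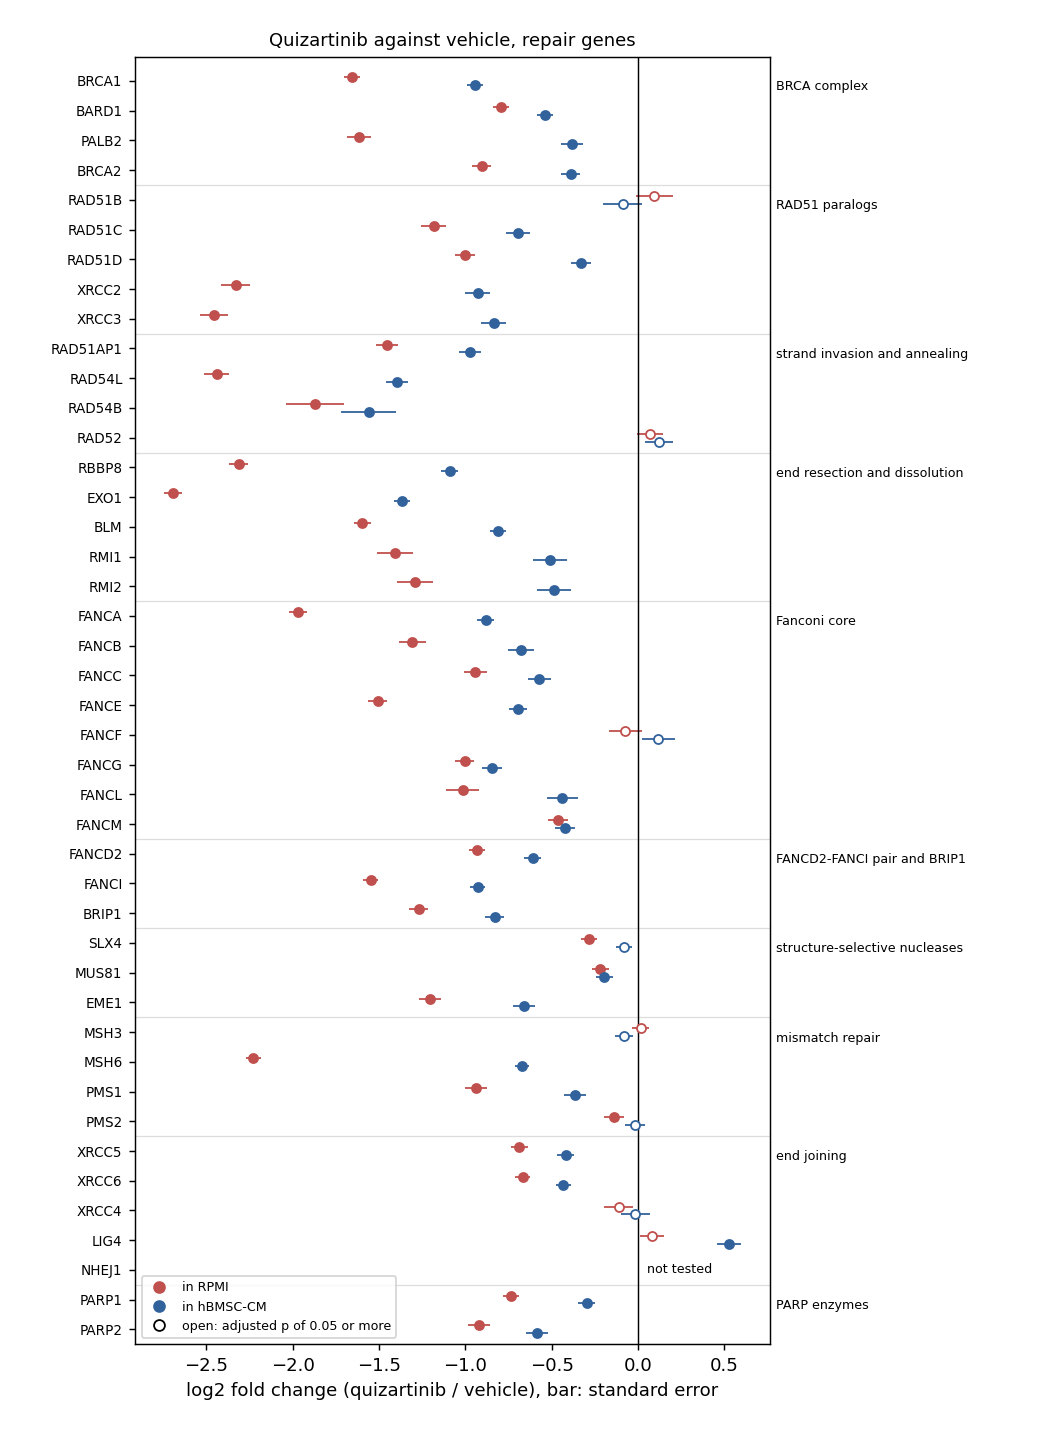
Log2 fold change of quizartinib against vehicle (horizontal axis, bars are standard errors) for each repair gene, grouped by role, in RPMI (red) and in hBMSC-CM (blue), with open points for genes that did not pass the test. The 36 genes lowered in RPMI lie between −0.14 (PMS2) and −2.69 (EXO1), and each of them has its hBMSC-CM point nearer to 0.

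The BRCA complex brings the recombinase to resected DNA, and all 4 of its genes fell in both media. BRCA1, a ubiquitin ligase and scaffold of the complex, stood at 193, 192 and 195 CPM with vehicle and 63.5, 59.7 and 60.9 CPM with quizartinib in RPMI. In hBMSC-CM it stood at 168, 174 and 155 CPM with vehicle and 85.0, 88.2 and 85.6 CPM with quizartinib. The 4 groups of BRCA1 did not overlap, and quizartinib in hBMSC-CM lay between quizartinib in RPMI and either vehicle group. BRCA1 fell 3.15-fold in RPMI (log2 −1.65, SE 0.046, edgeR adjusted p = 2.78e-18) and 1.92-fold in hBMSC-CM (log2 −0.94, SE 0.045, adjusted p = 1.74e-13). BRCA2, which hands the recombinase to single-stranded DNA, went from 184, 208 and 208 to 112, 106 and 103 CPM in RPMI. Its hBMSC-CM libraries held 152, 139.9 and 136 CPM with vehicle and 105, 114 and 108 CPM with quizartinib. The drug-treated groups of BRCA2 overlapped between media, while the vehicle groups did not. BRCA2 fell by log2 values of −0.90 (SE 0.055, edgeR adjusted p = 1.65e-12) in RPMI and −0.39 (SE 0.055, adjusted p = 2.6e-06) in hBMSC-CM. PALB2, the bridge between BRCA1 and BRCA2, went from 45.1 ± 2.6 to 14.7 ± 0.619 CPM (SD, n = 3) in RPMI and from 48.6 ± 3.68 to 37.3 ± 2.02 CPM in hBMSC-CM, log2 fold changes of −1.61 and −0.38. BARD1, the obligate partner of BRCA1, fell by log2 values of −0.79 in RPMI and −0.54 in hBMSC-CM.

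Of the 5 recombinase paralogs, 4 fell in both media and RAD51B passed the test in neither. XRCC3 (chr14:103697609-103715504, minus strand, GRCh38), a subunit of the complex with RAD51C, stood at 68.4, 66.4 and 67.7 CPM with vehicle and 11.2, 11.2 and 15.0 CPM with quizartinib in RPMI. Its hBMSC-CM libraries held 63.1, 63.5 and 71.0 CPM with vehicle and 37.9, 34.2 and 38.5 CPM with quizartinib. XRCC3 fell 5.48-fold (log2 −2.45, SE 0.083, edgeR adjusted p = 6.27e-17) in RPMI and 1.78-fold (log2 −0.83, SE 0.073, adjusted p = 2.4e-09) in hBMSC-CM. The opposite-strand gene KLC1 overlaps 76.7% of the annotated exon sequence of XRCC3, and whether reads were counted by strand was not stated. KLC1 moved the other way, from a mean of 31.7 to 45.2 CPM in RPMI (log2 0.52, called higher). XRCC2, of the complex that also holds RAD51B, RAD51C and RAD51D, went from 26.7, 30.8 and 27.4 to 5.75, 5.39 and 5.74 CPM in RPMI. In hBMSC-CM it went from 25.5, 27.0 and 29.1 to 14.0, 13.7 and 15.1 CPM. No pair of drug-treated and vehicle groups of XRCC2 or XRCC3 overlapped, and in both genes quizartinib in RPMI was the lowest group. XRCC2 fell by log2 values of −2.33 (SE 0.084, edgeR adjusted p = 1.94e-16) in RPMI and −0.93 (SE 0.074, adjusted p = 5.23e-10) in hBMSC-CM. RAD51C and RAD51D had log2 fold changes of −1.18 and −1.0 in RPMI and −0.69 and −0.33 in hBMSC-CM. RAD51B, by contrast, stood at 6.97, 7.49 and 8.06 CPM with vehicle and 7.57, 8.74 and 7.54 CPM with quizartinib in RPMI, and at 6.44, 6.59 and 7.97 CPM with vehicle and 7.09, 6.47 and 5.99 CPM with quizartinib in hBMSC-CM. Vehicle and quizartinib overlapped for RAD51B in both media, with log2 differences of 0.10 (SE 0.11, edgeR adjusted p = 0.411) and −0.09 (SE 0.11, adjusted p = 0.504).

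Among the genes of strand invasion and annealing, 3 of 4 fell in both media. RAD54L, a translocase that drives pairing with the sister, stood at 45.5, 41.3 and 45.1 CPM with vehicle and 8.15, 8.22 and 7.88 CPM with quizartinib in RPMI. In hBMSC-CM its values were 41.2, 42.1 and 37.3 CPM with vehicle and 15.3, 14.7 and 15.9 CPM with quizartinib. The drug-treated libraries lay far below the vehicle libraries in both media, and those in RPMI were the lowest. The fall was 5.43-fold (log2 −2.44, SE 0.07, edgeR adjusted p = 4.24e-18) in RPMI and 2.63-fold (log2 −1.40, SE 0.065, adjusted p = 1.05e-13) in hBMSC-CM. LRRC41, on the opposite strand over 19.9% of the RAD54L exon sequence, was higher with quizartinib in RPMI (log2 0.41). RAD51AP1, which stimulates strand pairing, went from 60.4, 66.8 and 64.5 to 25.5, 21.7 and 22.9 CPM in RPMI and from 51.3, 53.3 and 56.5 to 29.1, 26.7 and 26.1 CPM in hBMSC-CM. Its log2 fold changes were −1.45 (SE 0.065, edgeR adjusted p = 8.08e-15) and −0.97 (SE 0.065, adjusted p = 3.28e-11). RAD54B, a low-expressed relative of RAD54L, went from 3.98 ± 0.542 to 1.10 ± 0.102 CPM (SD, n = 3) in RPMI and from 4.14 ± 0.357 to 1.38 ± 0.176 CPM in hBMSC-CM. FSBP shares 66% of the RAD54B exon sequence on the same strand and also fell in RPMI (log2 −1.92), so reads from the shared sequence could belong to either gene. The interaction of quizartinib and medium passed the test for FSBP (log2 0.96) and not for RAD54B (0.31, edgeR adjusted p = 0.321). RAD52, an annealing protein, passed the test in neither medium, with 19.9 ± 1.76 and 21.0 ± 1.15 CPM in RPMI and 17.5 ± 1.46 and 19.0 ± 1.05 CPM in hBMSC-CM for vehicle and quizartinib. Other scalings called RAD52 higher, with log2 values of 0.18 in RPMI and 0.20 in hBMSC-CM for upper-quartile factors and 0.22 in hBMSC-CM for library size only.

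All 5 genes of end resection and dissolution fell in both media, and each fell at least 2-fold in RPMI. EXO1, a nuclease of long-range resection that also serves mismatch repair, had the largest fall of the repair genes tested. It stood at 112, 112 and 108 CPM with vehicle and 16.2, 18.1 and 17.0 CPM with quizartinib in RPMI, and at 107, 107 and 104 CPM with vehicle and 40.1, 43.4 and 40.1 CPM with quizartinib in hBMSC-CM. The vehicle libraries of EXO1 in both media lay close together, whereas the drug-treated groups lay far apart. EXO1 fell 6.46-fold (log2 −2.69, SE 0.052, edgeR adjusted p = 9.16e-21) in RPMI and 2.58-fold (log2 −1.37, SE 0.047, adjusted p = 1.12e-15) in hBMSC-CM. BLM, a helicase that dissolves joined DNA molecules, held 129, 137 and 129 CPM with vehicle and 44.6, 42.2 and 44 CPM with quizartinib in RPMI. In hBMSC-CM it held 128, 136 and 138 CPM with vehicle and 79.3, 76.1 and 73.5 CPM with quizartinib. Its log2 fold changes were −1.59 (SE 0.047, edgeR adjusted p = 7.28e-18) and −0.81 (SE 0.045, adjusted p = 1.91e-12). RBBP8, which encodes the resection factor CtIP, went from 114 ± 3.26 to 22.8 ± 0.809 CPM (SD, n = 3) in RPMI and from 120.1 ± 8.51 to 56.3 ± 1.71 CPM in hBMSC-CM. The BLM partners RMI1 and RMI2 had log2 fold changes of −1.41 and −1.29 in RPMI and −0.51 and −0.49 in hBMSC-CM.

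**Figure D3:**
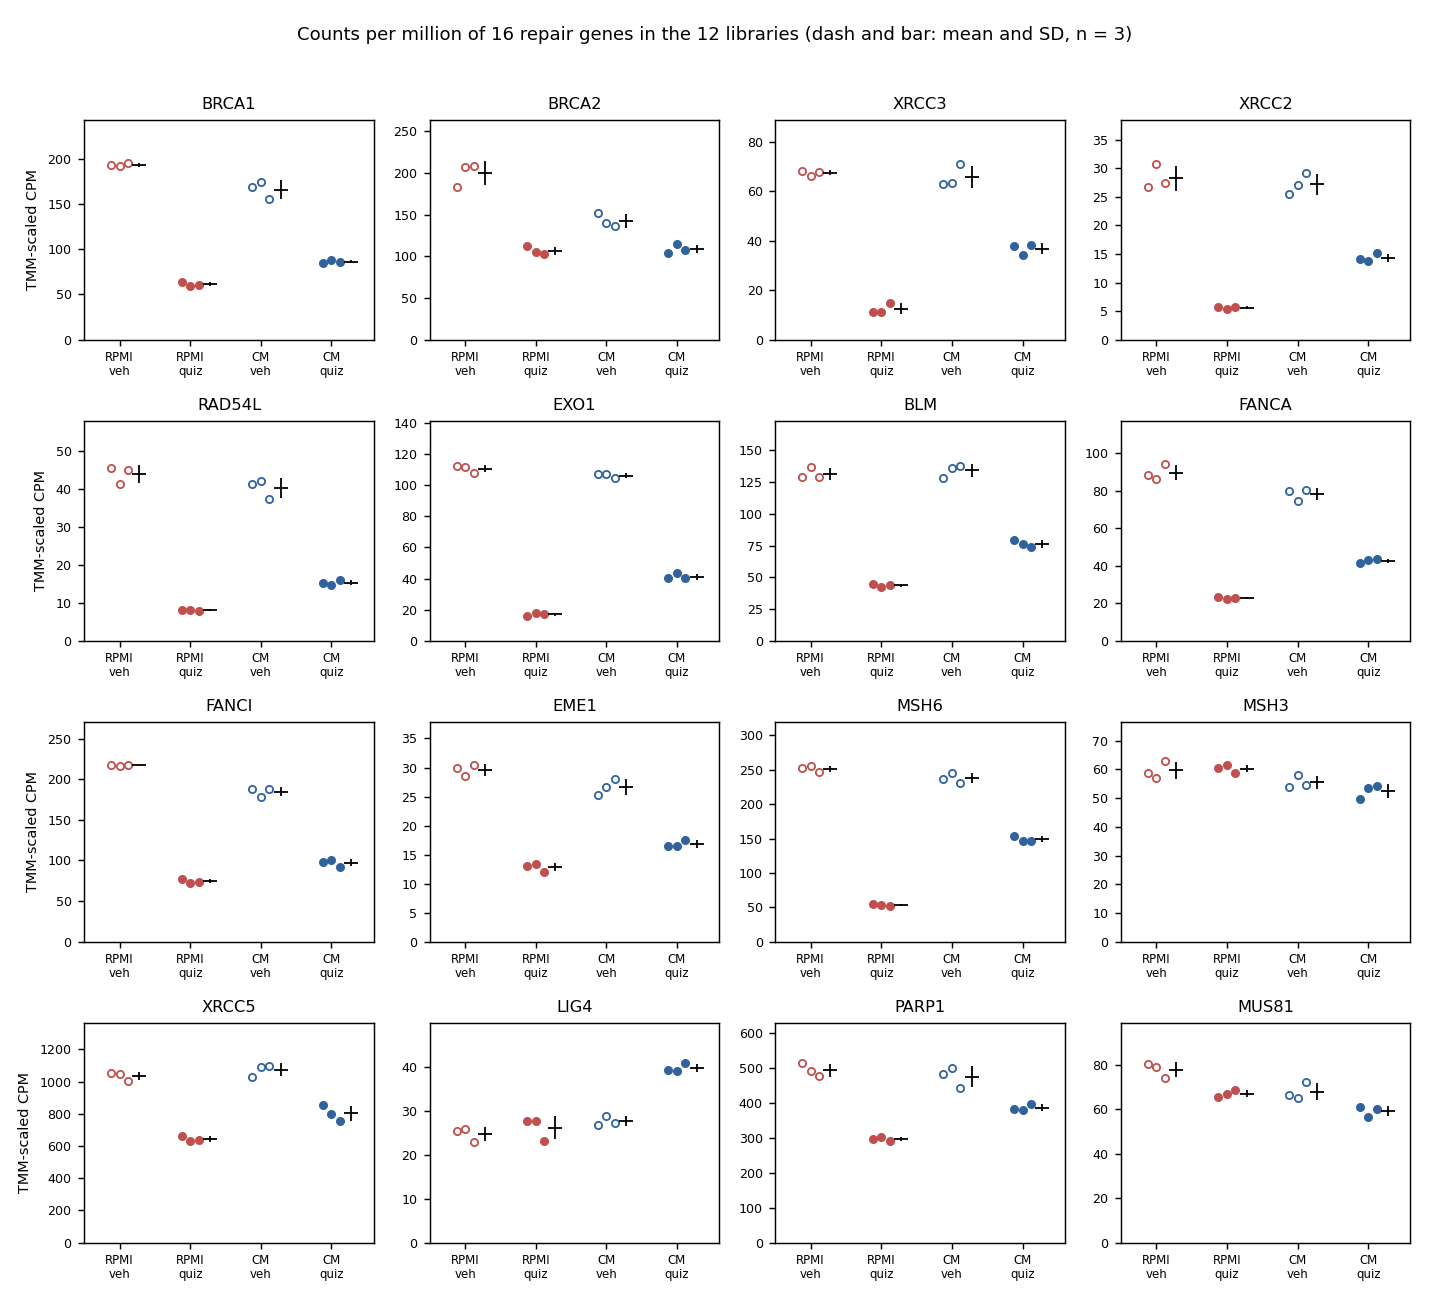
TMM-scaled CPM (vertical axes from 0) of 16 repair genes in each of the 12 libraries, with vehicle as open and quizartinib as filled circles, and the mean and SD of each group (n = 3) beside its points. In most panels the quizartinib group in RPMI is the lowest and that in hBMSC-CM lies between it and the vehicle groups, as for EXO1 with means of 17.1 ± 0.942 and 41.2 ± 1.86 CPM, while LIG4 is highest with quizartinib in hBMSC-CM and MSH3 varies little.

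Of the 8 genes of the Fanconi core complex, 7 fell in both media and FANCF in neither. FANCA stood at 88.5, 86.3 and 94.1 CPM with vehicle and 23.3, 22.4 and 22.9 CPM with quizartinib in RPMI, and at 79.9, 74.7 and 80.2 CPM with vehicle and 41.2, 43.2 and 43.4 CPM with quizartinib in hBMSC-CM. The quizartinib libraries of FANCA lay below every vehicle library, and the media did not overlap within either treatment. FANCA fell 3.92-fold (log2 −1.97, SE 0.052, edgeR adjusted p = 1.02e-18) in RPMI and 1.84-fold (log2 −0.88, SE 0.049, adjusted p = 1.79e-12) in hBMSC-CM. ZNF276 overlaps 19.6% of its exon sequence on the opposite strand and was not called in RPMI (log2 −0.12). FANCE, which links the core to FANCD2, had log2 fold changes of −1.51 and −0.69, and FANCB, a scaffold of the catalytic module, −1.31 and −0.68. FANCL, the ubiquitin ligase of the complex, had −1.01 and −0.44, and FANCC −0.94 and −0.57. The smallest falls in the group were those of FANCM, the translocase that anchors the core to DNA, at −0.46 and −0.42. FANCG had values of −1.0 in RPMI and −0.84 in hBMSC-CM, and neither FANCM nor FANCG passed the test of the difference between media (edgeR adjusted p = 0.725 and 0.118). FANCF held 10.1 ± 0.202 and 9.70 ± 1.17 CPM in RPMI and 10.9 ± 0.305 and 11.8 ± 1.37 CPM in hBMSC-CM (SD, n = 3), and with library size only it was called higher in hBMSC-CM (log2 0.22).

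The substrates of the core complex, FANCD2 and FANCI, and the helicase BRIP1 fell in both media. FANCI stood at 218, 217 and 218 CPM with vehicle and 77.2, 72.0 and 73.9 CPM with quizartinib in RPMI, and at 188, 178 and 188 CPM with vehicle and 98.2, 100.4 and 92.1 CPM with quizartinib in hBMSC-CM. No groups of FANCI overlapped, and the vehicle group in RPMI was the highest. FANCI fell 2.92-fold (log2 −1.55, SE 0.044, edgeR adjusted p = 3.61e-18) in RPMI and 1.9-fold (log2 −0.93, SE 0.043, adjusted p = 1.11e-13) in hBMSC-CM. FANCD2 went from 157 ± 3.28 to 82.2 ± 5.30 CPM (SD, n = 3) in RPMI and from 146 ± 5.89 to 95.5 ± 2.00 CPM in hBMSC-CM. BRIP1, which binds BRCA1, had log2 fold changes of −1.27 and −0.83.

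Among the structure-selective nucleases, the scaffold SLX4 and the nuclease MUS81 changed little, while the MUS81 partner EME1 fell more. EME1 stood at 29.9, 28.5 and 30.5 CPM with vehicle and 13, 13.4 and 12.1 CPM with quizartinib in RPMI, and at 25.3, 26.7 and 28 CPM with vehicle and 16.5, 16.4 and 17.6 CPM with quizartinib in hBMSC-CM. MUS81 stood at 80.3, 79.0 and 73.9 CPM with vehicle and 65.4, 66.8 and 68.5 CPM with quizartinib in RPMI, and at 66.5, 65.0 and 72.1 CPM with vehicle and 61.1, 56.6 and 60.2 CPM with quizartinib in hBMSC-CM. The vehicle and quizartinib groups of both genes did not overlap within a medium, but the gap was narrow for MUS81. EME1 had log2 fold changes of −1.20 (SE 0.066, edgeR adjusted p = 2.4e-13) and −0.66 (SE 0.065, adjusted p = 1.27e-08). Those of MUS81 were −0.22 (SE 0.049, edgeR adjusted p = 0.000388) and −0.19 (SE 0.051, adjusted p = 0.002), and the second lost its call with upper-quartile factors (adjusted p = 0.0513) and with library size only (adjusted p = 0.103). Opposite-strand neighbours overlap 16.4% of the EME1 exon sequence (LRRC59, log2 −1.32 in RPMI) and 13.9% of that of MUS81 (CFL1, −0.31), and both were called lower. SLX4 fell in RPMI (−0.28, SE 0.046, edgeR adjusted p = 9.77e-06) and did not pass the test in hBMSC-CM (−0.08, adjusted p = 0.138).

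The mismatch repair genes differed widely. MSH6, of the pair that reads single-base mismatches, stood at 252, 256 and 247 CPM with vehicle and 55.5, 53.7 and 51.9 CPM with quizartinib in RPMI, and at 236, 246 and 231 CPM with vehicle and 154, 147 and 146 CPM with quizartinib in hBMSC-CM. The drug-treated libraries in hBMSC-CM lay well above those in RPMI and well below vehicle. MSH6 fell 4.68-fold (log2 −2.23, SE 0.044, edgeR adjusted p = 1.51e-20) in RPMI and 1.59-fold (log2 −0.67, SE 0.042, adjusted p = 9.2e-12) in hBMSC-CM. FBXO11, over 22.7% of the MSH6 exon sequence on the opposite strand, moved the other way in RPMI (log2 0.43). MSH3, which reads longer loops, stood at 58.8, 57.2 and 63.1 CPM with vehicle and 60.4, 61.4 and 58.9 CPM with quizartinib in RPMI. In hBMSC-CM its values were 53.9, 58.2 and 54.7 CPM with vehicle and 49.6, 53.6 and 54.3 CPM with quizartinib. Vehicle and quizartinib overlapped for MSH3 in both media, and it passed the test in neither medium (log2 0.02, edgeR adjusted p = 0.785, and −0.08, adjusted p = 0.168). With upper-quartile factors MSH3 was called higher in RPMI (log2 0.12). PMS1 had log2 fold changes of −0.94 and −0.36. PMS2, an endonuclease subunit, had −0.14 (edgeR adjusted p = 0.0307) in RPMI and −0.02 (adjusted p = 0.796) in hBMSC-CM. Its call in RPMI was lost with DESeq2 (adjusted p = 0.0516), with upper-quartile factors (0.597) and with library size only (0.45). It was also lost without the second or the third vehicle library in RPMI (edgeR adjusted p = 0.195 and 0.0838) and without the second or the third quizartinib library in RPMI (0.138 and 0.0618). PMS2 has 15 similarly named pseudogenes in the annotation, so its reads are uncertain.

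The end-joining genes did not move as 1 group. XRCC5, which encodes the Ku80 subunit of the ring that grips DNA ends, stood at 1051, 1046 and 1006 CPM with vehicle and 664, 629 and 636 CPM with quizartinib in RPMI, and at 1028, 1092 and 1099 CPM with vehicle and 852, 799 and 757 CPM with quizartinib in hBMSC-CM. XRCC6, which encodes its Ku70 partner, went from 743 ± 15.5 to 468 ± 10.9 CPM (SD, n = 3) in RPMI and from 797 ± 26.1 to 590.3 ± 20.5 CPM in hBMSC-CM. Both Ku genes fell in both media by similar amounts, with no overlap of vehicle and quizartinib. XRCC5 had log2 fold changes of −0.69 (SE 0.049, edgeR adjusted p = 2.26e-11) and −0.42 (SE 0.048, adjusted p = 1.53e-07), and XRCC6 −0.67 and −0.43. XRCC6 has 5 similarly named pseudogenes. Elsewhere among the repair genes PARP1 has 2, and BRCA1, RAD51AP1, RAD52, RBBP8 and FANCD2 have 1 each. LIG4, the ligase of the final step, was the only repair gene called higher with quizartinib after TMM scaling, and this was in hBMSC-CM. Its libraries held 25.4, 25.9 and 22.8 CPM with vehicle and 27.6, 27.6 and 23.1 CPM with quizartinib in RPMI, and 26.7, 28.9 and 27.1 CPM with vehicle and 39.3, 39.1 and 40.7 CPM with quizartinib in hBMSC-CM. The rise in hBMSC-CM was 1.44-fold (log2 0.53, SE 0.067, edgeR adjusted p = 6.14e-07), and the value in RPMI was 0.08 (adjusted p = 0.28). In RPMI LIG4 passed the test as higher with upper-quartile factors (log2 0.19), with library size only (0.18) and without the third quizartinib library in RPMI (0.17). XRCC4, which holds LIG4, passed the test in neither medium, with log2 differences of −0.11 (edgeR adjusted p = 0.215) and −0.01 (adjusted p = 0.887), although it was called lower in RPMI when every gene with a count was tested (log2 −0.21). NHEJ1, which bridges ends, failed the filter on low counts. Its raw counts were 10, 12 and 9 with vehicle and 15, 17 and 10 with quizartinib in RPMI, and 5, 4 and 3 and 6, 9 and 9 in hBMSC-CM. A gene without a symbol shares 19.5% of the NHEJ1 exon sequence on the same strand, so reads from there could belong to either gene.

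PARP1 and PARP2 attach ADP-ribose chains at DNA breaks, and both fell in both media by less than 2-fold. PARP1 stood at 512, 489 and 476 CPM with vehicle and 296, 302 and 289.9 CPM with quizartinib in RPMI, and at 482, 499 and 441 CPM with vehicle and 382, 379 and 396 CPM with quizartinib in hBMSC-CM. PARP2 stood at 43.5, 40.2 and 41.7 CPM with vehicle and 22.7, 22.3 and 21.2 CPM with quizartinib in RPMI, and at 41.0, 42.6 and 37.2 CPM with vehicle and 27.4, 28.2 and 24.8 CPM with quizartinib in hBMSC-CM. For both genes the vehicle groups overlapped between media, and the drug-treated groups did not. The log2 fold changes were −0.73 (SE 0.047, edgeR adjusted p = 4.43e-12) and −0.30 (SE 0.047, adjusted p = 1.05e-05) for PARP1. They were −0.92 (SE 0.064, edgeR adjusted p = 1.73e-11) and −0.58 (SE 0.063, adjusted p = 5.86e-08) for PARP2.

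Set side by side, the fall in hBMSC-CM was the smaller in all 36 genes lowered in RPMI. The interaction described below passed the test for 31 of them. Selecting genes by their call in RPMI favours a smaller value in hBMSC-CM, also among all genes of the table. Dividing the log2 fold change in hBMSC-CM by the RPMI value gave a median of 0.514, from 0.128 for PMS2 to 0.912 for FANCM. Over the 5125 genes of the table lowered in RPMI the median of the same ratio was 0.49, close to that of the repair genes. The difference of the quizartinib effect between media was tested as an interaction. The drug effect was less negative or more positive in hBMSC-CM for 32 of the 42 repair genes and the reverse for none, against 26.4% and 18.8% of all tested genes. The median interaction of the repair genes was 0.48 on the log2 scale, against 0.02 over all tested genes, and 8 genes had an interaction of at least 1. These were XRCC3, MSH6, XRCC2, EXO1, PALB2, RBBP8, FANCA and RAD54L, and the share of all tested genes at this size was not counted. The values were 1.62 (SE 0.11, edgeR adjusted p = 1.28e-10) for XRCC3 and 1.55 (SE 0.06, adjusted p = 1.62e-14) for MSH6. Of the 3 lowest interactions, none passed the test, with −0.18 for RAD51B (edgeR adjusted p = 0.354), −0.10 for MSH3 (0.291) and 0.03 for MUS81 (0.804). RAD54B, RAD52, FANCF, FANCG, FANCM, PMS2 and XRCC4 did not pass it either. SLX4 lost its interaction (0.20, edgeR adjusted p = 0.0159) without the third vehicle library in RPMI (adjusted p = 0.0546) or the third quizartinib library in RPMI (0.0603). FANCG (0.16) gained one without the first quizartinib library in hBMSC-CM (log2 0.22, edgeR adjusted p = 0.0341).

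Between the media, more repair genes differed in drug-treated cells than in vehicle-treated cells. With quizartinib, 30 repair genes were at a higher level in hBMSC-CM, 3 were at a lower one and 9 did not pass the test, against 35.9% and 33.9% of all tested genes. The median log2 difference was 0.38, against 0.01 over all tested genes. Differences of at least 2-fold were those of XRCC3 (1.58, SE 0.086), MSH6 (1.47, SE 0.044), XRCC2 (1.34, SE 0.092), PALB2 (1.34, SE 0.07), RBBP8 (1.30, SE 0.057) and EXO1 (1.27, SE 0.055). The share of all tested genes that differed by this much was not counted. The comparison of media with quizartinib uses the drug-treated libraries of the comparisons above and is not independent of them. RAD51B (−0.29), MSH3 (−0.20) and MUS81 (−0.17) were lower, with edgeR adjusted p of 0.0245, 0.0017 and 0.00464, and all 3 lost their call when every gene with a count was tested (0.128, 0.0726 and 0.183). RAD51B also lost it without the second quizartinib library in RPMI (edgeR adjusted p = 0.128) and without the second or the third in hBMSC-CM (0.0562 and 0.102). RAD51AP1 (0.23) and FANCF (0.30) lost their call without the second quizartinib library in RPMI (edgeR adjusted p = 0.0621 and 0.0687). FANCF lost it without the first in hBMSC-CM as well (0.081), and BRIP1 (0.20) without the third in RPMI (0.0545). BARD1 (0.08), on the other hand, gained a call without the third quizartinib library in hBMSC-CM (0.0375). BRCA2, FANCC, FANCG, FANCM, RAD54B, SLX4, RAD52 and XRCC4 did not pass the test either.

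With vehicle, 11 repair genes were lower in hBMSC-CM, none was higher and 31 did not pass the test, against 15.5% lower and 16.6% higher over all tested genes. No difference reached 2-fold and the median was −0.07. BRCA2 differed most (−0.48, SE 0.054, edgeR adjusted p = 7.27e-07). FANCC (−0.31), RAD51AP1 (−0.25), BRIP1 (−0.24), FANCI (−0.24), BRCA1 (−0.22), MUS81 (−0.20), FANCA (−0.19), SLX4 (−0.18), BARD1 (−0.17) and FANCG (−0.15) followed. FANCG (edgeR adjusted p = 0.0371) lost its call without the first or the third vehicle library in RPMI (0.125 and 0.136) and without the first or the second in hBMSC-CM (0.126 and 0.0935). RAD52, FANCD2 and EME1 gained a call without the third vehicle library in hBMSC-CM (edgeR adjusted p = 0.0332, 0.0367 and 0.0331). FANCD2 gained one without the first quizartinib library in RPMI too (0.0491), and RMI1 without the first vehicle library in hBMSC-CM (0.0284).

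**Figure D4:**
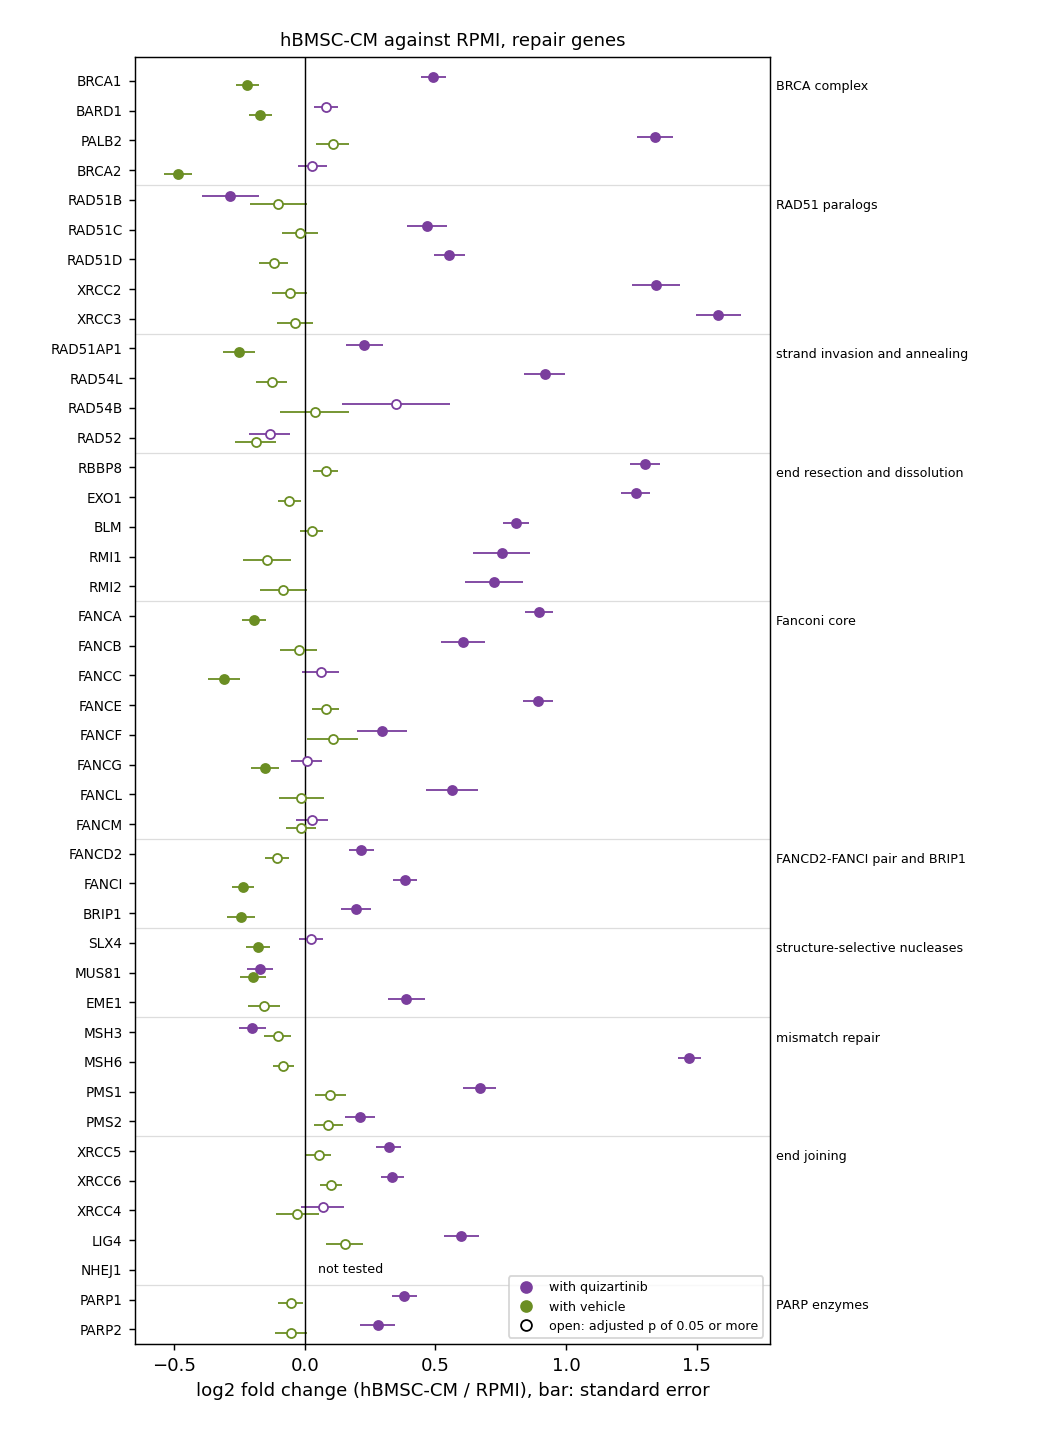
Log2 fold change of hBMSC-CM against RPMI (horizontal axis, bars are standard errors) for each repair gene, grouped by role, with quizartinib (purple) and with vehicle (green), and open points for genes that did not pass the test. The quizartinib points reach 1.58 (XRCC3) and the vehicle points lie between −0.48 (BRCA2) and 0.15 (LIG4).

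Levels were compared between genes per kb of exon of the canonical transcript, in vehicle-treated cells in RPMI. The Ku genes led with 350 ± 7.31 CPM per kb for XRCC6 and 306 ± 7.25 for XRCC5 (SD, n = 3), followed by PARP1 (124 ± 4.61), MSH6 (59.0 ± 1.08) and FANCI (46.0 ± 0.158). Next came RBBP8 (34.7 ± 0.997), MUS81 (32.9 ± 1.42) and EXO1 (32.1 ± 0.667), of which MUS81 and EXO1 differed by less than the larger SD. At the lower end stood RAD51D (3.85 ± 0.18), FANCF (3.08 ± 0.0613), RAD54B (1.29 ± 0.176) and NHEJ1 (0.0509 ± 0.00793). With quizartinib in RPMI, XRCC6 (221 ± 5.16), XRCC5 (190.0 ± 5.45) and PARP1 (74.4 ± 1.5) kept their places, MUS81 came next at 28.3 ± 0.657, and MSH6 stood at 12.6 ± 0.422 CPM per kb. Other transcripts than the canonical one would shift these levels, though not the comparisons of 1 gene between groups.

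The other genes of these pathways moved less uniformly. Of 42 tested genes of a further list of recombination and Fanconi genes, 25 fell and 12 rose with quizartinib in RPMI, with a median log2 fold change of −0.36. For this and the following lists, the shares of all tested genes in RPMI were 39.4% lower and 39.8% higher. The largest falls were those of PSMC3IP (−2.62 in RPMI, −1.39 in hBMSC-CM), a cofactor of the recombinase, and TONSL (−2.35 and −1.08), which works at stalled forks. WDR48 (0.86 and 0.34), a cofactor of the enzyme that deubiquitinates FANCD2, and ZSWIM7 (0.56 and 0.52), which acts in recombination, rose most. In a list of further end-joining genes 7 of 11 fell and 4 rose in RPMI, among them PAXX (−1.11) and LIG3 (−0.85) with the largest falls and POLL (0.66) and DCLRE1C (0.39) with the largest rises. Nucleotide excision repair, which removes bulky lesions, had 8 of 19 genes lower (42.1%) and 6 higher (31.6%) with a median of −0.08. Its share of lowered genes was near that of all tested genes. Its members included GTF2H3 (−0.61) among those that fell, and ERCC6 (1.22) and ERCC5 (0.72) rose most. Base excision repair had 10 of 14 lower and 3 higher with a median of −0.28. There the flap nuclease FEN1 (−2.96 in RPMI, −1.22 in hBMSC-CM), which also matures Okazaki fragments, and the glycosylase NTHL1 (−0.95 in RPMI) fell most, whereas the repair polymerase POLB (0.69) and SMUG1 (0.45) rose.

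Replication genes had larger falls by their median than the repair genes. All 32 genes of the replication list, which load the helicase and run the fork, fell in both media, with medians of −1.84 in RPMI and −0.88 in hBMSC-CM. With quizartinib 29 of them stood higher in hBMSC-CM than in RPMI and 1 lower. For this and the following lists, 33.6% of all tested genes were lower with the drug in hBMSC-CM. Between media with quizartinib, 35.9% of all tested genes were higher and 33.9% lower in hBMSC-CM. MCM10 (−3.71 in RPMI, −1.50 in hBMSC-CM) and CDC6 (−3.35 and −1.32) fell most. Among regulators of E2F and DREAM target genes 15 of 18 fell and 3 rose in RPMI, with a median of −1.25. E2F1 (−2.88 in RPMI, −0.95 in hBMSC-CM) and E2F2 (−2.15 and −1.14) fell most, and LIN37 (0.55) and TFDP2 (0.49) were the largest rises in RPMI. Markers of G2 and M phase differed from the repair genes between media. Of these 20 genes, 16 fell and 1, CENPF (0.16), rose with quizartinib in RPMI, 19 fell in hBMSC-CM, and with quizartinib 16 were lower and none higher in hBMSC-CM than in RPMI. CCNA2 (−1.15 and −0.98) and AURKB (−1.07 and −1.06) fell most in RPMI. Their summed level was 5690 to 5740 CPM with vehicle and 4480 to 4760 CPM with quizartinib in RPMI, and 4780 to 5040 and 3560 to 3730 CPM in hBMSC-CM. From flow cytometry at an earlier time point, the paper reported a G1 arrest of cells surviving quizartinib that was similar with and without hBMSC-CM. The libraries used here carry no such measurement. The part of the cell cycle distribution in the changes of the repair genes was not tested here.

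**Figure D5:**
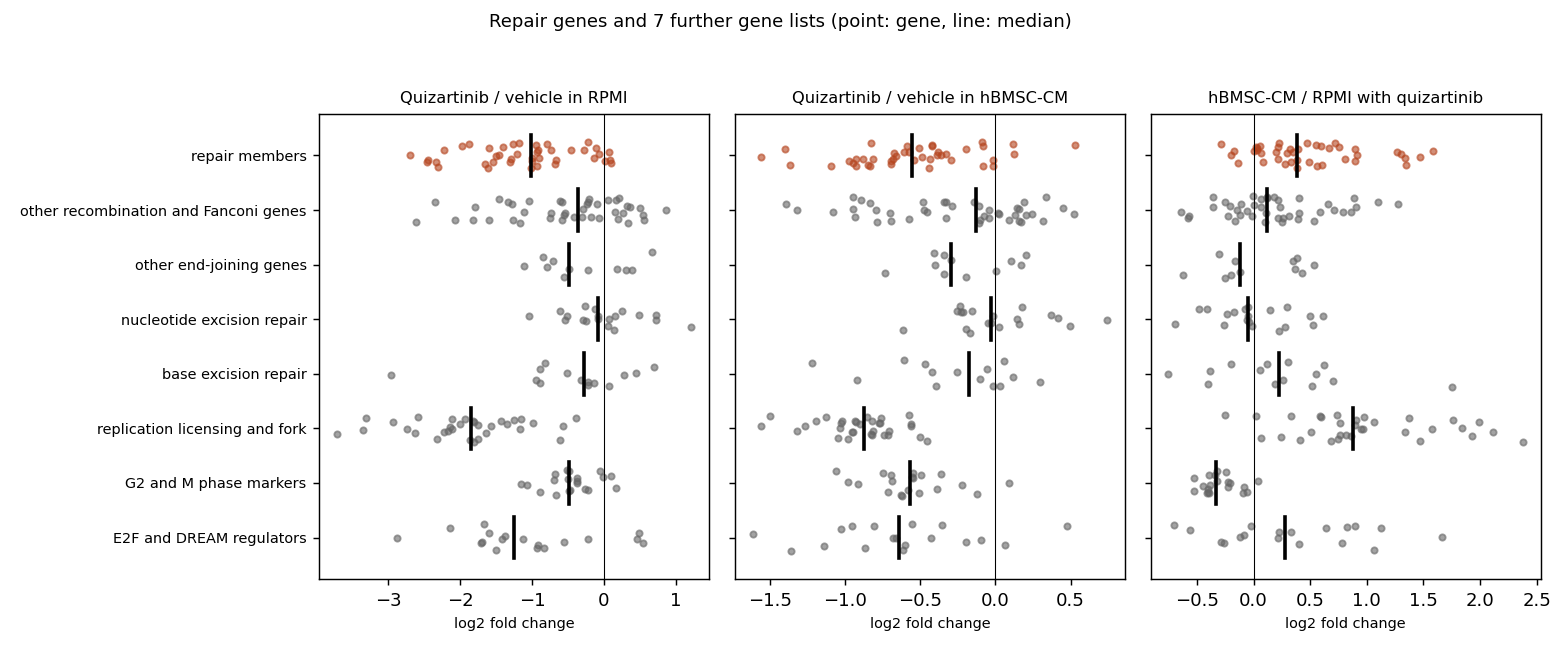
Log2 fold changes of single genes (points) and list medians (black lines) for the repair genes and 7 further lists, for quizartinib against vehicle in RPMI, the same in hBMSC-CM, and hBMSC-CM against RPMI with quizartinib. The repair genes have medians of −1.01, −0.56 and 0.38, the replication genes −1.84, −0.88 and 0.88, and the G2 and M phase markers −0.48, −0.57 and −0.33.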

How the data were processed

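Poly-A-selected RNA of 12 MOLM-13 libraries was sequenced from both ends. The authors trimmed adapters, removed reads shorter than 50 bases with BBDuk, aligned to hg38 (Ensembl release 96), counted reads per gene with STAR 2.6.0a (version also in the submitters' processing notes) and summed identifiers with the same gene name. The deposited values are raw counts, whole numbers with no normalization. Reads that fit several genes cannot be reassigned from such a table, and use of strand is not given in the sources used here.

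Libraries were assigned to groups by their labels, and 0 columns were left without a sample. The design text also names an ATM inhibitor, but no library used here carries it in its label. The filter required a mean count and a mean CPM of 1 or more (12998 of 30572 genes with a count). After TMM scaling, counts were fitted in edgeR 4.0.16 (glmQLFit, glmQLFTest; R 4.3.3) in 1 model of 4 group means with 8 residual degrees of freedom, without a replicate block. The authors used limma. The 5 contrasts were the drug in each medium, the medium under each treatment, and the interaction. Tests were two-sided, with Benjamini-Hochberg adjustment over all tested genes and a threshold of 0.05. The scripts were tested on simulated data. Exon lengths, positions and overlaps of at least 10% came from GENCODE 44 (GRCh38), and promoters from RefSeq (GRCh38.p14), with 39 of the 43 genes matched by symbol.

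The repair genes, the further lists, the motifs and the rule for values per library were chosen with earlier results of these data known. The rule took, in each role, the gene with the largest drug effect in RPMI and that with the highest mean CPM, and the 3 highest and 3 lowest interactions. LIG4 was added after its values were seen. In each further list the 2 largest called changes in each direction were named. Alternatives were other scaling factors, DESeq2 1.42.0, limma-voom (limma 3.58.1), other filters and thresholds, a replicate block, models of 2 groups and each library left out. A gene of the nucleotide excision repair list, which its counts include, is not reported here by name.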

Additional observations from a re-analysis of the deposited data

Results flagged for a closer look

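The effect of quizartinib differed between the media for 32 of the 42 tested repair genes, by a test of the difference itself (the interaction in edgeR's quasi-likelihood fit with Benjamini-Hochberg adjustment, against 26.4% of all tested genes with a higher value). Values below are interactions on the log2 scale, positive where the drug effect was less negative or more positive in hBMSC-CM. They were 0.71 for BRCA1, 0.25 for BARD1, 1.23 for PALB2 and 0.51 for BRCA2 in the BRCA complex. The recombinase paralogs had 0.49 (RAD51C), 0.67 (RAD51D), 1.40 (XRCC2) and 1.62 (XRCC3). Strand invasion genes had 0.48 (RAD51AP1) and 1.04 (RAD54L). In end resection and dissolution the values were 1.22 (RBBP8), 1.32 (EXO1), 0.78 (BLM), 0.90 (RMI1) and 0.80 (RMI2). The Fanconi core genes had 1.09 (FANCA), 0.63 (FANCB), 0.37 (FANCC), 0.81 (FANCE) and 0.58 (FANCL). FANCD2, FANCI and BRIP1 had 0.32, 0.62 and 0.44. Among nucleases they were 0.20 (SLX4) and 0.54 (EME1), and among mismatch repair genes 1.55 (MSH6) and 0.57 (PMS1). End-joining genes had 0.27 (XRCC5), 0.23 (XRCC6) and 0.45 (LIG4), and the PARP enzymes 0.44 (PARP1) and 0.33 (PARP2). For BRCA2, BARD1, FANCC and SLX4 the drug-treated level was not called different between media (log2 0.03, 0.08, 0.06 and 0.02). Their vehicle level was lower in hBMSC-CM (−0.48, −0.17, −0.31 and −0.18). Their interactions thus do not show a higher level in hBMSC-CM with quizartinib. A smaller fall in hBMSC-CM was not particular to the repair genes. The ratio of log2 fold changes, hBMSC-CM to RPMI, had a median of 0.514 over the repair genes lowered in RPMI. Over all 5125 genes lowered in RPMI the median was 0.49. The share of those genes with a higher interaction was not counted. The cause of these differences was not tested.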

How the results depend on the processing

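No value changed sign past the threshold under any alternative run. With upper-quartile factors, 3 repair genes were called higher with quizartinib in RPMI and 2 in hBMSC-CM, the median log2 fold changes were −0.90 and −0.47, that of hBMSC-CM against RPMI with quizartinib was 0.33, and 17 genes were lower in hBMSC-CM with vehicle. With library size only, 1 and 3 genes were higher with quizartinib in RPMI and hBMSC-CM, with medians of −0.92 and −0.45. With every gene with a count tested, the medians were −1.11 for quizartinib in RPMI, 0.45 for the media with quizartinib (none lower) and 0.55 for the interaction. DESeq2 called 1 gene, XRCC6, higher in hBMSC-CM with vehicle. The cause of these moves was not tested. With 1 library left out, in RPMI 35 to 36 genes were lower and 0 to 1 higher with quizartinib (median −1.07 to −0.98), and in hBMSC-CM 34 lower and 1 higher (−0.58 to −0.52). Between media with quizartinib 28 to 31 were higher and 2 to 3 lower (0.37 to 0.40), with vehicle 10 to 14 lower and 0 higher (−0.10 to −0.06), and 31 to 33 interactions were higher and 0 lower (0.45 to 0.55). Of the values of single genes, 1817 of those under other settings kept their side of the threshold, 20 gained and 11 lost a call, and with a library left out 2495 kept it, 8 gained and 17 lost a call. Of those that kept it, 24 and 35 changed sign, none of them called, at sizes of at most 0.09 and 0.06. Over all tested genes, lower interactions numbered 2440, against 1685 with every gene with a count and 1581 at an adjusted p under 0.01. Replicate numbers did not pair the libraries: deviations of same-numbered libraries correlated at −0.27 to 0.12 (18 pairs, 1 over 0.1). A replicate block left the counts of called repair genes as they were in all 5 contrasts (36 lower in RPMI, 34 lower and 1 higher in hBMSC-CM, 30 higher and 3 lower with quizartinib, 11 lower with vehicle, 32 interactions higher), and with vehicle RAD52 gained (edgeR adjusted p = 0.0485) and FANCG lost (0.051) a call. Depth limits NHEJ1, RAD54B, RMI2 and RAD51B, the genes with the fewest counts. For NHEJ1 and RAD54B, exon sequence shared with another gene on the same strand leaves the counts uncertain as well.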
